A study of Homo sapiens with 24 samples.

Results

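A2780 and ES2 are established human ovarian cancer cell lines, and the results below concern the A2780 cells given siRNA against VRK1 (siVRK1) beside the A2780 cells given control siRNA (siCtrl), 3 libraries of each, 6 of the 24 libraries of the study. They were chosen by their sample titles. Bulk RNA was sequenced, and the deposited values are TPM, length-normalised shares of a library's transcripts that add to the same total in each. The other A2780 libraries had the solvent DMSO or luteolin, a plant flavone, 3 of each. Those 6 libraries share the estimate of the spread, and the DMSO levels are given beside those of siCtrl as a description. ES2 libraries with siVRK1 or siCtrl, 3 of each, entered where the effect was set beside that of the other line. The ES2 libraries with DMSO or luteolin, 3 of each, entered there too, in the choice of genes tested and the estimate of the spread. Every library is labelled WT for genotype. The sources used here give neither the siRNA sequences nor how many siRNAs were used, their dose and the time of harvest.

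VRK1 is a nuclear serine/threonine kinase of the vaccinia-related kinase family. It phosphorylates the DNA-bridging protein BANF1, which lets chromatin part from the nuclear envelope as cells enter mitosis, and also histone H3, coilin and p53. An siRNA guides an Argonaute protein to a matching mRNA, which is then cut, and the seed of its guide strand can also lower mRNAs that match it in their 3′ UTR.

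VRK1 had 11.3, 9.41 and 7.98 TPM in the siVRK1 libraries, against 54.4, 53.6 and 55.2 TPM in the siCtrl libraries. Each siVRK1 library lay far below each siCtrl library (log2 fold change -2.40 ± 0.11 (SE), adjusted p = 1.75e-08, limma), and the DMSO libraries held 55.1, 48.8 and 58.7 TPM. The gene lies on chr14:96797304-96931722, plus strand, in GRCh38 with GENCODE 29. Of its 7 transcripts in the table, the main coding one, ENST00000216639, held 6.87, 7.57 and 7.11 TPM with siVRK1, against 49.6, 51.2 and 52.7 TPM with siCtrl. The treatment label of siVRK1 libraries 2 and 3 reads siVRK2 and siVRK3, and the cell line label counts up from A2780, so the titles were followed. In those libraries VRK1 was as low as in library 1. VRK2 had 20.95, 22.3 and 20.97 TPM with siVRK1, against 26.1, 29.6 and 23.3 TPM with siCtrl, a smaller fall (log2 fold change -0.28 ± 0.09, adjusted p = 0.0194) that missed the threshold under median-of-ratios scaling (adjusted p = 0.0863) or quantile normalization (0.122), without siVRK1 library 1 (0.0512) or 3 (0.0567) and without siCtrl library 2 (0.0933). VRK3 had 27.6, 25.8 and 22.7 TPM with siVRK1, against 28.01, 26.4 and 29.9 TPM with siCtrl, and did not pass the test (adjusted p = 0.169).

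Markers of Müllerian and ovarian epithelium were at or near 0 in A2780: PAX8 reached at most 0.0226 TPM and WT1 at most 0.121 TPM in the 6 libraries. EPCAM stood at 0.757 to 1.36 TPM with siVRK1 and 1.52 to 2.01 TPM with siCtrl, and KRT18 at 4.65 to 6.05 TPM with siVRK1 and 7.34 to 9.35 TPM with siCtrl. KRT8 overlapped, at 0.716 to 1.12 TPM with siVRK1 and 0.909 to 1.42 TPM with siCtrl. Near the floor, CDH1 went the other way, at 0.255 to 0.432 TPM with siVRK1 and 0 to 0.0629 TPM with siCtrl. So did KRT19, at 0.0421 to 0.457 TPM with siVRK1 and 0 TPM with siCtrl. The intermediate filament VIM stood at 2487 to 2585 TPM with siVRK1 and 3144 to 3245 TPM with siCtrl. With DMSO, EPCAM, KRT8 and KRT18 averaged 1.10, 0.693 and 3.98 TPM, nearer to siVRK1 than to siCtrl. CDH1, KRT19 and VIM averaged 0.0678, 0.0336 and 3066 TPM with DMSO, nearer to siCtrl. The summed level of 12 leukocyte markers was 3.35 to 4.78 TPM with siVRK1 and 3.13 to 4.52 TPM with siCtrl, with CD3D, CD3E, MS4A1 and LYZ listed at 0 in all 6 libraries. The 8 endothelial markers added to 1.42 to 1.81 TPM with siVRK1 and 0.485 to 1.15 TPM with siCtrl. The 6 erythroid markers added to 3.70 to 5.05 TPM with siVRK1 and 2.93 to 6.17 TPM with siCtrl, and the 6 melanocyte markers to 4.47 to 6.85 TPM with siVRK1 and 2.32 to 4.55 TPM with siCtrl. A library held 12227 to 12470 genes at 1 TPM or more. Across genes, which are not independent replicates, log2 levels correlated at 0.993 to 0.994 within a group and 0.983 to 0.984 between the groups. Nothing in the labels says whether a group's libraries are separate cultures, so each p-value reflects the spread among the libraries alone, and that spread may be technical.

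Of 13012 genes tested, 1799 were higher with siVRK1 (13.8%) and 3519 were lower (27.0%), together 40.9%, at an adjusted p under 0.05. These shares are the background for the group counts given below from the TPM as deposited. Most changes were small. Changes under 1.25-fold made up 31.4% of the calls, those of 1.25 to 1.5-fold 44.2%, those of 1.5 to 2-fold 19.6%, and those of 2-fold or more 4.80%, with 104 genes higher and 151 lower. The surplus of falls depended on the scaling. Median-of-ratios scaling moved the median of all genes to 0.00 on the log2 scale, against -0.08 in the TPM as deposited, and gave 2687 genes higher (20.7%) and 2657 lower (20.4%), so 50.3% of the calls were rises, against 33.8% as deposited. Since TPM are shares, less RNA of one kind cannot be told apart from more of the rest. RNA5-8SP6, a ribosomal RNA pseudogene chosen after its values were seen, had 1223, 1318 and 1240 TPM with siVRK1, against 356, 318 and 391 TPM with siCtrl. The groups did not overlap, and its part in other results was not tested.

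**Figure D1:**
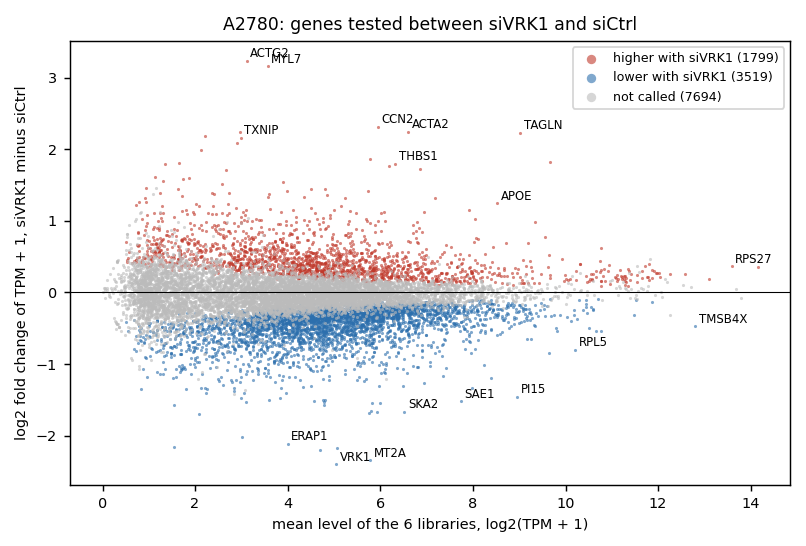
Log2 fold change of TPM + 1 (vertical, siVRK1 minus siCtrl) against the mean level of the 6 libraries as log2(TPM + 1) (horizontal), 1 point a gene, for 13012 genes. The 1799 genes called higher and the 3519 called lower form bands close to 0, and ACTG2 and MYL7 stand furthest above it at 3.23 and 3.16.

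**Figure D2:**
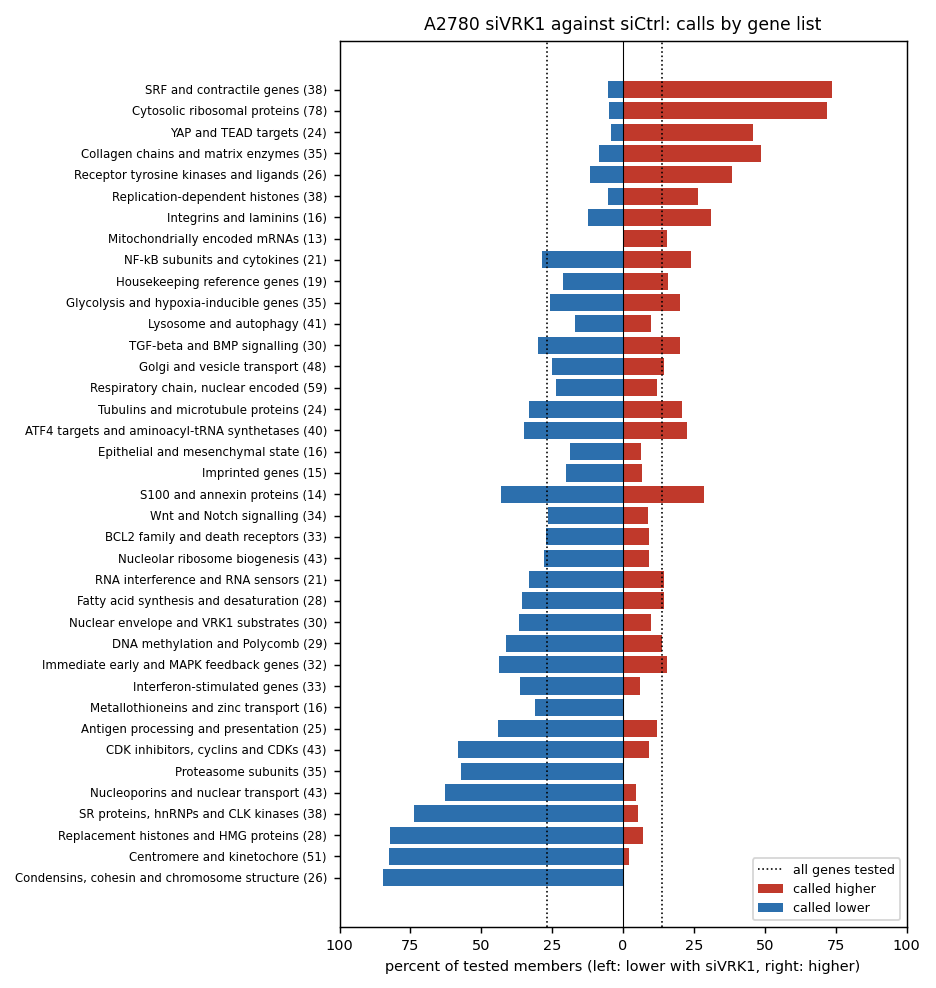
Percent of the tested members of each gene list called higher (right) or lower (left) with siVRK1, with the number tested in brackets and dotted lines at the shares of all genes, 13.8% and 27.0%. Contractile genes and ribosomal proteins head the rises at 73.7% and 71.8%, and condensins and cohesin head the falls at 84.6%.

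The rises were led by genes of the actin cytoskeleton and the smooth muscle contractile machinery. Serum response factor (SRF) and its actin-sensing coactivators drive such genes through the CArG box, a short element in their promoters. Of 38 tested genes of this group, 28 were higher and 2 lower, with a median log2 fold change of 0.59, against -0.08 over all genes tested. CNN1, which encodes the actin-binding calponin, had 114, 113 and 107 TPM with siVRK1, against 30.5, 30.5 and 35.2 TPM with siCtrl (log2 fold change 1.77 ± 0.08, adjusted p = 1.88e-08). TPM1, a tropomyosin that lies along the actin filament, had 344, 323 and 331 TPM with siVRK1, against 151, 153 and 145 TPM with siCtrl (log2 fold change 1.15 ± 0.05, adjusted p = 9.42e-09). NEXN, an actin-binding protein of the muscle Z-disc, had 39.6, 39.2 and 40.2 TPM with siVRK1, against 13.1, 14.2 and 14.7 TPM with siCtrl (log2 fold change 1.44 ± 0.09, adjusted p = 2.26e-07). The 40 largest rises and falls, these 3 among them, and the largest gains and losses in TPM were taken from the genes whose groups do not overlap (53.3% of those tested), so their separation was set by the choice.

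LMOD1, leiomodin, which nucleates actin filaments in smooth muscle, had 6.21, 6.61 and 7.09 TPM with siVRK1, against 1.87, 2.22 and 1.73 TPM with siCtrl. TLN1, talin, which ties integrins to actin, had 57.4, 52.7 and 48.5 TPM with siVRK1, against 20.9, 18.2 and 23.1 TPM with siCtrl, and 35.2, 39.5 and 35.2 TPM with DMSO. LMOD1 and TLN1 rose by 1.38 ± 0.15 and 1.31 ± 0.09 on the log2 scale (adjusted p = 1.40e-05 and 3.49e-07), and TLN1 lay between the groups in the DMSO libraries. MYL6, the myosin light chain of nonmuscle cells, was abundant and rose less, with 2106, 2112 and 2111 TPM with siVRK1 against 1393, 1351 and 1360 TPM with siCtrl (log2 fold change 0.62 ± 0.03, adjusted p = 1.96e-08). The cytoplasmic actin ACTB had 4224, 4291 and 4412 TPM with siVRK1, against 4322, 4245 and 4276 TPM with siCtrl, with overlapping groups (log2 fold change 0.01 ± 0.03, adjusted p = 0.848, and -0.17 under quantile normalization). TPM3 and PDLIM5 were the 2 members that fell, by 0.28 and 0.59 on the log2 scale. SRF itself, chosen after its values were seen, had 78.0, 76.5 and 73.6 TPM with siVRK1, against 48.3, 46.8 and 46.0 TPM with siCtrl (log2 fold change 0.68 ± 0.05, adjusted p = 3.65e-07). Actin genes are near-identical in their coding parts, so the division of reads among them is uncertain.

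The CArG box was searched by its consensus on both strands of RefSeq promoters (GRCh38.p14, 250 bases before to 50 after the start). It stood in 8 of 34 promoters of the group (23.5%), and in 100 of 10024 promoters of all tested genes (0.998%). The group was listed as SRF and contractile genes, with SRF itself a member, so this surplus is no independent finding. Of the 25 group members with a promoter that were called higher, 7 held it. Of the 9 others, 1 did, ACTG1. Matches of 4 genes that rose are shown with the box in capitals and 10 bases on each side, to let the element be seen in each. They read in the gene's direction, at chr2:73892888-73892917 (plus strand) for ACTG2, chr7:44141374-44141403 (minus strand) for MYL7, chr6:43171229-43171258 (plus strand) for SRF and chr2:105438595-105438624 (minus strand) for FHL2, a LIM-domain partner of SRF.
ACTG2: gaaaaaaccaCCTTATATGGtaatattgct
MYL7: ctgttcctctCCTTATTTGGaccttcaggt
SRF: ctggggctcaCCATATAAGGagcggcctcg
FHL2: aatctggagaCCTTAAAAGGcacgtgggag
The box shown begins at -110 in ACTG2, -61 in MYL7, -30 in SRF and -101 in FHL2, with the start site as 0, and ACTG2 and SRF hold a further match each, at -73 and -10. A match is a description of the letters and not a bound site. FHL2, chosen for its match after its values were seen, had 29.2, 24.7 and 24.3 TPM with siVRK1, against 17.8, 17.96 and 15.8 TPM with siCtrl (log2 fold change 0.57 ± 0.08, adjusted p = 0.000183).

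**Figure D3:**
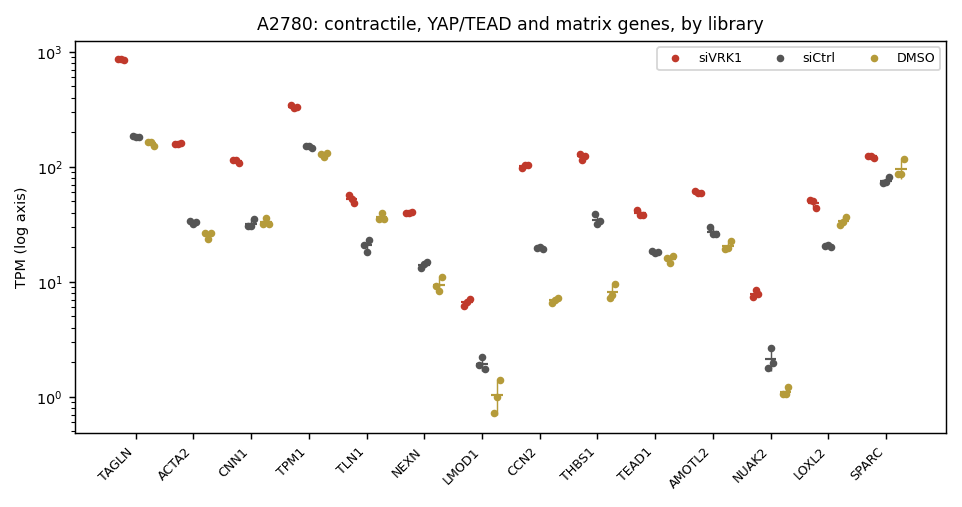
TPM on a log axis in each siVRK1, siCtrl and DMSO library of A2780 (points), with group means and SD (lines, n = 3 each), for contractile, YAP/TEAD and matrix genes. All siVRK1 points lie above all siCtrl points in the 14 genes, from LMOD1 at 6.21 to 7.09 TPM up to TAGLN at 845 to 873 TPM with siVRK1.

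Targets of YAP and TEAD, the transcription factors that the Hippo pathway restrains, were listed with parts of that pathway such as LATS1. Together they counted 11 of 24 higher and 1 lower, with a median of 0.21. NUAK2, a kinase that promotes actomyosin tension, had 7.41, 8.42 and 7.79 TPM with siVRK1, against 1.79, 2.65 and 1.95 TPM with siCtrl (log2 fold change 1.51 ± 0.15, adjusted p = 8.29e-06). AMOTL2, an angiomotin that binds YAP, had 61.5, 59.6 and 59.4 TPM with siVRK1, against 29.7, 25.9 and 26.3 TPM with siCtrl (log2 fold change 1.11 ± 0.07, adjusted p = 2.42e-07). TEAD1, the DNA-binding partner, had 42.3, 38.4 and 38.4 TPM with siVRK1, against 18.7, 17.7 and 18.1 TPM with siCtrl (log2 fold change 1.09 ± 0.07, adjusted p = 2.43e-07). All 3 were higher in each siVRK1 library than in each siCtrl library. YAP1 had 99.7, 97.5 and 85.1 TPM with siVRK1, against 110.5, 108 and 107 TPM with siCtrl, and missed the threshold (log2 fold change -0.21 ± 0.08, adjusted p = 0.0533). LATS1, a Hippo kinase, fell (log2 fold change -0.45 ± 0.12). In the DMSO libraries NUAK2 had 1.05, 1.05 and 1.22 TPM, below the siCtrl level.

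Genes of the extracellular matrix and its enzymes counted 17 of 35 higher (48.6%) and 3 lower (8.57%), with a median of 0.22. Of all genes tested, 13.8% were higher and 27.0% lower. THBS1, the secreted glycoprotein thrombospondin, had 129.9, 116 and 124 TPM with siVRK1, against 38.6, 32.1 and 33.6 TPM with siCtrl (log2 fold change 1.80 ± 0.12, adjusted p = 2.75e-07). LOXL2, which crosslinks collagen, had 51.8, 50.7 and 44.1 TPM with siVRK1, against 20.5, 20.9 and 19.9 TPM with siCtrl (log2 fold change 1.21 ± 0.08, adjusted p = 2.43e-07). SPARC, a collagen-binding matrix protein, had 125, 125 and 120.0 TPM with siVRK1, against 71.9, 73.1 and 80.7 TPM with siCtrl (log2 fold change 0.71 ± 0.10, adjusted p = 0.000126). The siVRK1 libraries were the higher ones throughout, although 1 DMSO library reached 117 TPM of SPARC. COL1A1 stayed low at 5.502, 5.26 and 5.23 TPM with siVRK1, against 2.93, 2.79 and 3.16 TPM with siCtrl (log2 fold change 0.68 ± 0.13). COL7A1 and TIMP1 fell, by 0.97 and 0.30 on the log2 scale. The fibroblast markers added to 112 to 124 TPM with siVRK1 and 86.3 to 89.2 TPM with siCtrl, with 4 of 7 tested called higher and 1 lower, and no member listed at 0 in all 6 libraries. That list shares collagen genes with the matrix group, and its part in the matrix rises was not tested.

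Integrins and laminins went both ways, with 5 of 16 higher (31.2%) and 2 lower (12.5%). ITGA5, the fibronectin receptor chain, had 50.4, 50.7 and 50.6 TPM with siVRK1, against 33.5, 33.3 and 31.5 TPM with siCtrl (log2 fold change 0.61 ± 0.05, adjusted p = 3.64e-06). ITGAV, the chain of vitronectin receptors, had 196, 171 and 167 TPM with siVRK1, against 332, 315 and 309.7 TPM with siCtrl (log2 fold change -0.84 ± 0.11, adjusted p = 6.88e-05). The groups were apart in both genes, in opposite directions. VTN, vitronectin itself, had 12.99, 10.8 and 12.2 TPM with siVRK1, against 1.49, 1.69 and 2.02 TPM with siCtrl (log2 fold change 2.25 ± 0.16, adjusted p = 5.57e-07). FBLN5, an elastic fibre protein, had 6.65, 5.32 and 5.9 TPM with siVRK1, against 0.778, 0.781 and 0.699 TPM with siCtrl (log2 fold change 1.98 ± 0.19, adjusted p = 7.41e-06). LIMS2, an adaptor of focal adhesions, had 7.297, 5.97 and 6.41 TPM with siVRK1, against 0.652, 0.423 and 0.915 TPM with siCtrl (log2 fold change 2.19 ± 0.13, adjusted p = 1.75e-07). These 3 genes were low in the controls, and each siVRK1 library lay above 5 TPM.

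TGF-beta and BMP genes counted 6 of 30 higher and 9 lower, shares near the 13.8% and 27.0% of all genes, with a median of 0.02. The ligand TGFB3 had 12.7, 15.2 and 18.99 TPM with siVRK1, against 8.22, 10.1 and 5.95 TPM with siCtrl (log2 fold change 0.88 ± 0.17, adjusted p = 0.00154). SMAD1, a transducer of BMP signals, had 11.1, 11.7 and 11.5 TPM with siVRK1, against 27.7, 25.5 and 20.8 TPM with siCtrl (log2 fold change -1.04 ± 0.11, adjusted p = 1.61e-05). Their groups did not overlap, the ligand being higher and the transducer lower. Of the ID genes, BMP-responsive inhibitors of basic helix-loop-helix factors, ID1, ID2 and ID3 fell. ID3 had 588, 567 and 569 TPM with siVRK1, against 1051, 1028 and 1016 TPM with siCtrl (log2 fold change -0.84 ± 0.04, adjusted p = 1.34e-08). ID1 had 113, 113 and 111 TPM with siVRK1, against 224, 194 and 209 TPM with siCtrl (log2 fold change -0.89 ± 0.05). ID2 had 60.6, 60.1 and 55.9 TPM with siVRK1, against 133, 119 and 136 TPM with siCtrl (log2 fold change -1.12 ± 0.08). The DMSO levels of ID1, ID2 and ID3 averaged 192, 102 and 936 TPM, nearer to siCtrl than to siVRK1. ID4, named after its values were seen, rose instead, with 62.6, 61.1 and 64.2 TPM with siVRK1, against 49.7, 48.3 and 50.4 TPM with siCtrl (log2 fold change 0.33 ± 0.07, adjusted p = 0.00202).

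Receptor tyrosine kinases and their ligands counted 10 of 26 higher (38.5%) and 3 lower (11.5%), and 14 and 2 with median-of-ratios scaling. EFNA1, an ephrin ligand, and EPHA2, an ephrin receptor, rose by 0.89 and 0.47 on the log2 scale, and PDGFRA, a PDGF receptor, fell by 0.52. Wnt and Notch genes counted 3 of 34 higher and 9 lower, and 6 and 8 with median-of-ratios scaling. The Wnt receptor FZD1 fell by 0.52 on the log2 scale and the ligand WNT5B rose by 0.69. The epithelial and mesenchymal genes counted 1 of 16 higher and 3 lower, VIM, KRT18 and SNAI2.

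Other genes among the 40 largest rises belong to no single pathway. TXNIP, which binds thioredoxin and restrains glucose uptake, had 12.1, 11.5 and 12.2 TPM with siVRK1, against 1.79, 1.83 and 2.09 TPM with siCtrl (log2 fold change 2.16 ± 0.10, adjusted p = 1.75e-08). APOE, the lipid-carrying apolipoprotein, had 509, 533 and 504 TPM with siVRK1, against 213, 213 and 223 TPM with siCtrl, and 319, 328 and 289 TPM with DMSO (log2 fold change 1.25 ± 0.05, adjusted p = 7.46e-09). SLC41A1, a magnesium transporter, had 39.6, 40.4 and 40.7 TPM with siVRK1, against 14.2, 15.8 and 14.99 TPM with siCtrl (log2 fold change 1.37 ± 0.07, adjusted p = 2.20e-08). APOE stood between the groups in the DMSO libraries. DDAH1, which breaks down methylated arginines, had 28.2, 27.9 and 28.3 TPM with siVRK1, against 11.01, 10.1 and 10.4 TPM with siCtrl (log2 fold change 1.34 ± 0.07). SAR1B, the GTPase of COPII vesicles, had 28.8, 33.9 and 28.8 TPM with siVRK1, against 14.2, 10.01 and 15.1 TPM with siCtrl (log2 fold change 1.17 ± 0.17). The lowest of the 40 was TPM1 at 1.15, and the next gene outside them stood at 1.14.

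Several rises were set against a low siCtrl level, with DMSO cells closer to the siVRK1 level. CEND1, a neuronal cell cycle exit protein, had 10.7, 11.9 and 10.9 TPM with siVRK1, against 1.66, 1.46 and 2.605 TPM with siCtrl, and 9.77, 9.19 and 8.55 TPM with DMSO. GNG8, a G protein gamma subunit, had 189.9, 173 and 162 TPM with siVRK1, against 38.6, 71.6 and 51.99 TPM with siCtrl, and 137, 158 and 172 TPM with DMSO. CACNG7, a regulator of calcium channels and AMPA receptors, had 30.9, 33.5 and 32.1 TPM with siVRK1, against 12.1, 10.9 and 10.4 TPM with siCtrl, and 43.4, 39.8 and 40.9 TPM with DMSO. All 3 rose over siCtrl (log2 fold changes 2.08 ± 0.13, 1.72 ± 0.23 and 1.45 ± 0.07), while their DMSO libraries lay above every siCtrl library. ISG15, a ubiquitin-like protein induced by interferon, had 208, 210.4 and 197 TPM with siVRK1, against 82.5, 83.3 and 78.4 TPM with siCtrl, and 182, 172 and 161 TPM with DMSO (log2 fold change 1.32 ± 0.06, adjusted p = 1.88e-08). NDN, the imprinted gene of necdin, had 50.6, 52.3 and 49.9 TPM with siVRK1, against 25.7, 25.1 and 26.8 TPM with siCtrl, and 42.8, 40.4 and 41.9 TPM with DMSO (log2 fold change 0.95 ± 0.05). The DMSO and siCtrl cells differ in more than the siRNA, and no test was made between them.

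The 40 largest falls, past the most extreme 10, ran from REEP3 at -1.65 to a last one at -1.23 on the log2 scale, and the next gene outside them also rounded to -1.23. SAE1, a subunit of the enzyme that activates SUMO, had 109, 109.6 and 109 TPM with siVRK1, against 321, 311 and 315 TPM with siCtrl, and 283, 286 and 297 TPM with DMSO (log2 fold change -1.52 ± 0.05, adjusted p = 1.02e-09). REEP3, which keeps endoplasmic reticulum away from mitotic chromosomes, had 26.98, 24.5 and 25.8 TPM with siVRK1, against 85.3, 82.3 and 81.1 TPM with siCtrl, and 37.4, 34.8 and 41.9 TPM with DMSO (log2 fold change -1.65 ± 0.08, adjusted p = 1.75e-08). SINHCAF, a subunit of the SIN3 deacetylase complex, had 33.8, 33.2 and 28.4 TPM with siVRK1, against 93.5, 98.6 and 90.3 TPM with siCtrl (log2 fold change -1.54 ± 0.09, adjusted p = 8.27e-08). The siVRK1 and siCtrl libraries were far apart in each, and DMSO lay between them, nearer to siCtrl in SAE1 and nearer to siVRK1 in REEP3. VPS4B, the ATPase that takes ESCRT-III filaments apart, had 10.05, 11.5 and 12.7 TPM with siVRK1, against 35.6, 33.2 and 33.7 TPM with siCtrl (log2 fold change -1.51 ± 0.09). GGCT, gamma-glutamylcyclotransferase of glutathione breakdown, had 50.9, 50.1 and 51.03 TPM with siVRK1, against 129, 126 and 127 TPM with siCtrl (log2 fold change -1.31 ± 0.05). PRKAR2B, a regulatory subunit of protein kinase A, had 13.1, 13.6 and 12.9 TPM with siVRK1, against 38.1, 41.1 and 38.6 TPM with siCtrl (log2 fold change -1.50 ± 0.08).

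PI15, a secreted peptidase inhibitor, was the most abundant of these falls, with 293, 259.8 and 240.1 TPM with siVRK1, against 749.5, 722 and 708 TPM with siCtrl, and 342, 333 and 445 TPM with DMSO (log2 fold change -1.46 ± 0.10, adjusted p = 5.13e-07). CLU, the extracellular chaperone clusterin, had 67.7, 68.9 and 78.4 TPM with siVRK1, against 170.3, 178 and 172 TPM with siCtrl, and 83.1, 93.3 and 91.1 TPM with DMSO (log2 fold change -1.27 ± 0.07, adjusted p = 6.80e-08). In both, DMSO cells lay nearer to siVRK1 than to siCtrl. RPL22L1, a paralog of a ribosomal protein, had 143, 136 and 153 TPM with siVRK1, against 355, 369 and 363 TPM with siCtrl (log2 fold change -1.33 ± 0.05). The chemokine receptor CCR1 had 30.1, 27.6 and 28.6 TPM with siVRK1, against 69.6, 68.3 and 69.2 TPM with siCtrl (log2 fold change -1.23 ± 0.07). The transcription factors ETV1 and KLF2 fell by 1.40 and 1.34 on the log2 scale, both from the ranked falls.

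**Figure D4:**
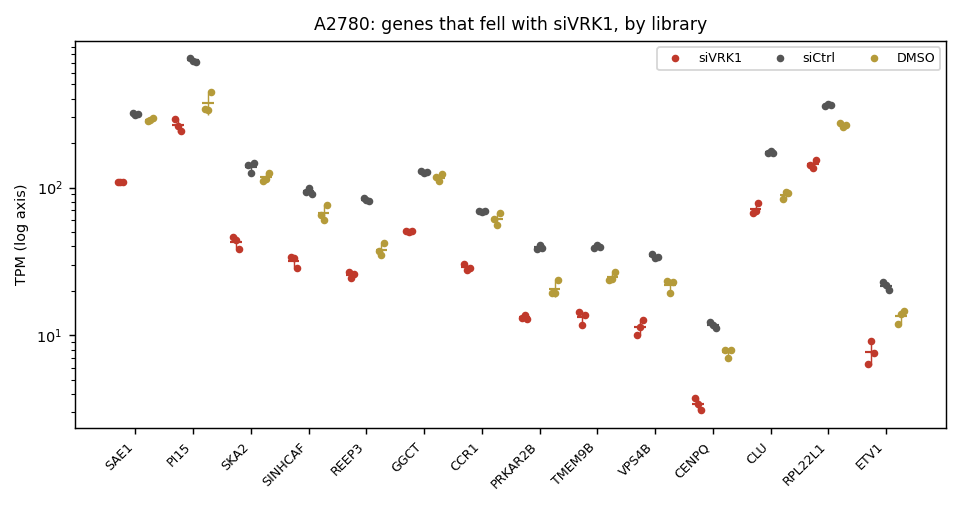
TPM on a log axis in each siVRK1, siCtrl and DMSO library of A2780 (points), with group means and SD (lines, n = 3 each), for 14 genes that fell. All siVRK1 points lie below all siCtrl points, and DMSO points often lie between them, as for REEP3 at 34.8 to 41.9 TPM.

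A 7-base word, GATAATA, was searched in the 3′ UTRs (GENCODE 29) of tested genes with a mean of at least 5 TPM. It came from an earlier search of these data. Neither its share among the 10 largest falls (5 of 10) nor the other shares given below are therefore independent findings. Of the 30 falls ranked 11 to 40, 17 held it (56.7%), among them REEP3, SINHCAF, CENPQ, TMEM9B, SAE1, VPS4B, BPGM, PRKAR2B, PI15, GGCT, EEA1 and CCR1. None of the 10 largest rises and 3 of the next 29 did (THBS1, LMOD1 and IL6ST), and 717 of all 9716 genes searched did (7.38%). Of the 717 genes with the word, 421 were called lower (58.7%), with a median log2 fold change of -0.36. Of the 8999 without it, 2727 were called lower (30.3%), with a median of -0.08. The genes with the word also have longer 3′ UTRs, with a median of 2306 bases against 745 bases. The main VRK1 transcript, ENST00000216639 (chromosome 14, 1745 bases, GENCODE 29), holds the word once, at position 230 in its coding part, shown in capitals in its sense strand to place the word in the target.
VRK1: tttgcagttggagaGATAATAac
Whether this word belongs to the siRNA is not known here, since no siRNA sequence was used, and its part in the falls was not tested. With the genes that hold the word left out, an alternative added after the data had been seen, 1748 genes were higher and 3048 lower. Among genes named elsewhere in the text, LATS1, SMAD1, PDLIM5, CCNA2, CCNE1, E2F7, CENPA, NCAPG, NEMP1, NUP35, WDR75, RPL5, SCD and SLC2A3 fell and hold the word. Of the gene groups with at least 5 falls, the count of falls moved by 1.5 times or more without such members in 3: TGF-beta and BMP genes, with 5 of 24 lower against 9 of 30, Golgi and vesicle genes, with 7 of 40 lower against 12 of 48, and nucleolar genes, with 8 of 39 lower against 12 of 43.

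Genes of the centromere and kinetochore, which hold chromosomes to the spindle, fell as a group, with 42 of 51 lower and 1 higher, and a median of -0.55. CENPQ, of the inner kinetochore, had 3.75, 3.41 and 3.11 TPM with siVRK1, against 12.3, 11.7 and 11.2 TPM with siCtrl (log2 fold change -1.53 ± 0.09, adjusted p = 1.43e-07). NSL1, of the complex that bridges the inner and outer kinetochore, had 28.8, 26.1 and 25.4 TPM with siVRK1, against 54.97, 57.7 and 58.6 TPM with siCtrl (log2 fold change -1.07 ± 0.10, adjusted p = 5.99e-06). OIP5, which helps load the centromeric histone, had 9.08, 10.2 and 13 TPM with siVRK1, against 21.5, 20.1 and 20.4 TPM with siCtrl (log2 fold change -0.89 ± 0.13, adjusted p = 0.00017). Each siVRK1 library lay below each siCtrl library. Without the 4 members that hold the word GATAATA, CENPA and CENPQ among them, 38 of 47 were lower, with a median of -0.50. Condensin, cohesin and related genes, which shape and tie chromosomes, counted 22 of 26 lower and none higher by limma (0 higher at an unadjusted p under 0.05, and 1 with median-of-ratios scaling).

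The condensin subunit NCAPH had 51.3, 49.3 and 42.3 TPM with siVRK1, against 91.4, 84.7 and 84.3 TPM with siCtrl (log2 fold change -0.85 ± 0.09, adjusted p = 1.26e-05). NCAPG had 28.4, 25.3 and 21.4 TPM with siVRK1, against 48.9, 46.8 and 47.1 TPM with siCtrl, and 31.8, 29.3 and 39.7 TPM with DMSO (log2 fold change -0.91 ± 0.14). Both were lower in every siVRK1 library, and the DMSO libraries of NCAPG reached down near the siVRK1 level. Cyclins, CDKs and their inhibitors counted 25 of 43 lower and 4 higher, with a median of -0.28. CDKN1A, the p21 inhibitor of CDKs, had 359, 354 and 350.3 TPM with siVRK1, against 183, 168 and 168 TPM with siCtrl, and 48.1, 52 and 48.3 TPM with DMSO (log2 fold change 1.03 ± 0.07, adjusted p = 2.42e-07). The siCtrl libraries thus held more CDKN1A than the DMSO libraries, and the siVRK1 libraries more than both. E2F7, a repressor of E2F targets, had 9.66, 7.603 and 7.26 TPM with siVRK1, against 18.6, 19.4 and 20.6 TPM with siCtrl, and 8.97, 8.18 and 9.85 TPM with DMSO (log2 fold change -1.17 ± 0.10, adjusted p = 2.92e-06). CCND2, cyclin D2, rose by 0.37 on the log2 scale, and CCNA2 and CCNE1 fell by 1.05 and 1.03. The 3 falls named here, E2F7, CCNA2 and CCNE1, are the 3 members that hold GATAATA, and without them 22 of 40 were lower.

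Many promoters of mitotic genes hold the letters TTTGAA, the cell cycle homology region that the DREAM and MuvB complexes bind. Searched on both strands of the same 300-base promoter windows, TTTGAA stood in 17 of 41 kinetochore promoters (41.5%) and 7 of 33 promoters of the cyclin and CDK group (21.2%), and in 958 of 10024 promoters of all tested genes (9.56%). Both groups were listed as cell cycle genes, so this surplus is no independent finding, and its part in the falls was not tested. Matches of 4 kinetochore genes that fell, chosen for their match after their values were seen, are shown with the letters in capitals, at chr2:26786028-26786053 (plus strand) for CENPA, chr15:40161036-40161061 (plus strand) for BUB1B, chr1:163321960-163321985 (plus strand) for NUF2 and chr18:2571544-2571569 (plus strand) for NDC80, where the match lies on the other strand.
CENPA: gagcgagcgaTTTGAAcgcgagcggc
BUB1B: gaccgttaaaTTTGAAacttggcggc
NUF2: aggcggcaagTTTGAAaagtgatgac
NDC80: ggcggagaatTTCAAAttcgaacggc
The matches begin at -18 in CENPA, -23 in BUB1B, 16 in NUF2 and -3 in NDC80. CENPA, the centromeric histone, had 17.3, 18.05 and 16.1 TPM with siVRK1, against 27.4, 25.6 and 27.7 TPM with siCtrl. BUB1B, a checkpoint protein, had 59.1, 58.8 and 54.2 TPM with siVRK1, against 78.9, 85.5 and 88.3 TPM with siCtrl. NDC80, which binds microtubules, had 31.2, 25.9 and 28.2 TPM with siVRK1, against 44.9, 48.4 and 39.96 TPM with siCtrl. The groups were apart in all 3 (log2 fold changes -0.62 ± 0.09, -0.55 ± 0.08 and -0.63 ± 0.10). NUF2 averaged 27.6 TPM with siVRK1, against 46.1 TPM with siCtrl (log2 fold change -0.73 ± 0.07). With DMSO, BUB1B and NUF2 averaged 68.2 and 35.6 TPM, nearer to siVRK1 than to siCtrl. CENPA and NDC80 averaged 28.4 and 39.6 TPM with DMSO, nearer to siCtrl.

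Known substrates of VRK1 and genes of the nuclear envelope counted 11 of 30 lower and 3 higher (9 and 8 with median-of-ratios scaling), with a median of -0.18. BANF1, the substrate named above, had 491, 502 and 482 TPM with siVRK1, against 509, 511 and 526 TPM with siCtrl. Its groups did not overlap, yet the difference missed the threshold (log2 fold change -0.07 ± 0.04, adjusted p = 0.181, and 0.03 with median-of-ratios scaling). NEMP1, a protein of the inner nuclear membrane, had 24.98, 23.04 and 21.4 TPM with siVRK1, against 50.7, 48.8 and 50.3 TPM with siCtrl, and 23.04, 22.6 and 29.6 TPM with DMSO (log2 fold change -1.08 ± 0.10, adjusted p = 3.52e-06). TMPO, a lamina-associated protein that binds BANF1, had 129, 121 and 111 TPM with siVRK1, against 208, 197 and 198 TPM with siCtrl (log2 fold change -0.74 ± 0.11, adjusted p = 0.00027). COIL, coilin of Cajal bodies and a VRK1 substrate, had 28.7, 25.3 and 26.6 TPM with siVRK1, against 41.3, 40.8 and 38.9 TPM with siCtrl (log2 fold change -0.57 ± 0.08, adjusted p = 0.000188). The last 3 were lower in every siVRK1 library.

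Histone genes split by class. Replacement histones, their chaperones and HMG proteins, whose mRNAs carry poly(A) tails, counted 23 of 28 lower and 2 higher, with a median of -0.34. H2AZ1, an H2A variant of promoters, had 1329, 1307 and 1291 TPM with siVRK1, against 1891, 1915 and 1923 TPM with siCtrl (log2 fold change -0.54 ± 0.05, adjusted p = 3.42e-06). HMGN4, a nucleosome-binding protein, went the other way with 66.7, 60.6 and 57.6 TPM with siVRK1, against 30.9, 36.1 and 32.8 TPM with siCtrl (log2 fold change 0.87 ± 0.08, adjusted p = 4.18e-06). The groups were apart in both. Replication-dependent histones counted 10 of 38 higher and 2 lower, with a median of 0.02, and H2AC18 and H2BC21 rose most among those named by rule, by 1.87 and 1.39 on the log2 scale. Copies of these histone genes are near-identical and most of their mRNAs lack poly(A) tails, so their values are uncertain. DNA methylation and Polycomb genes counted 4 of 29 higher and 12 lower (8 and 11 with median-of-ratios scaling), with TET1 lower by 0.77 and EZH1 higher by 0.54 on the log2 scale.

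The machinery of RNA and protein moved in 2 directions. Cytosolic ribosomal proteins counted 56 of 78 higher and 4 lower, with a median of 0.19, and took 22.5% of all TPM with siVRK1, against 19.7% with siCtrl. With quantile normalization the count was 26 higher and 13 lower, so the count depends on the scaling. RPS27 had 13226, 13693 and 14620 TPM with siVRK1, against 10574, 10760 and 10939 TPM with siCtrl, and 12606, 13332 and 11595 TPM with DMSO (log2 fold change 0.36 ± 0.06, adjusted p = 0.000238). RPL28 had 1103, 1162 and 1117 TPM with siVRK1, against 821, 794 and 834 TPM with siCtrl, and 1129, 1215 and 1072 TPM with DMSO (log2 fold change 0.47 ± 0.05, adjusted p = 1.88e-05). In both genes the DMSO libraries lay above every siCtrl library, and in RPS27 they spread between the groups and into the siVRK1 range. RPL5, which holds GATAATA in its 3′ UTR, fell instead, with 856, 873 and 864 TPM with siVRK1, against 1516, 1510 and 1504 TPM with siCtrl (log2 fold change -0.80 ± 0.03, adjusted p = 1.96e-09). Many ribosomal protein genes have processed pseudogenes, so the division of their reads is uncertain.

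SR proteins, hnRNPs and their CLK kinases, which choose splice sites, counted 28 of 38 lower and 2 higher (19 and 3 with median-of-ratios scaling). HNRNPA2B1 had 1195, 1200 and 1192 TPM with siVRK1, against 1679, 1726 and 1676 TPM with siCtrl (log2 fold change -0.50 ± 0.04, adjusted p = 2.41e-06). Nucleoporins and nuclear transport receptors counted 27 of 43 lower and 2 higher, with a median of -0.33. NUP35, of the inner ring of the pore, had 24.5, 24.4 and 19.3 TPM with siVRK1, against 56.5, 49.1 and 47.9 TPM with siCtrl (log2 fold change -1.14 ± 0.14, adjusted p = 4.36e-05). Neither gene had overlapping groups. Proteasome subunits counted 20 of 35 lower and none higher by limma (0 higher at an unadjusted p under 0.05, and 12 lower and 1 higher with median-of-ratios scaling), with PSMA3 the lowest at -0.53. Nucleolar genes of ribosome biogenesis counted 12 of 43 lower and 4 higher, but 8 and 12 with median-of-ratios scaling. WDR75, a factor of small subunit assembly, had 77.3, 71 and 67.9 TPM with siVRK1, against 149.6, 146 and 151 TPM with siCtrl (log2 fold change -1.04 ± 0.09, adjusted p = 2.41e-06).

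Measured by TPM rather than by fold, the greatest loss among the ranked genes was in TMSB4X, thymosin beta-4, which binds free actin monomers. It had 5750, 5921 and 6228 TPM with siVRK1, against 8723, 8144 and 8002 TPM with siCtrl (log2 fold change -0.47 ± 0.05, adjusted p = 1.80e-05). TUBA1B, an alpha-tubulin, had 1445, 1435 and 1374 TPM with siVRK1, against 2101, 2034 and 2059 TPM with siCtrl (log2 fold change -0.54 ± 0.04, adjusted p = 1.48e-06). Tubulins and microtubule proteins as a whole counted 8 of 24 lower (33.3%) and 5 higher (20.8%), against 27.0% and 13.8% of all genes. FTH1, the ferritin heavy chain, was among the large gains, with 6377, 6764 and 6936 TPM with siVRK1, against 5784, 5573 and 5420 TPM with siCtrl, and 3220, 3239 and 3271 TPM with DMSO (log2 fold change 0.26 ± 0.04, adjusted p = 0.000166), which missed the threshold under quantile normalization (adjusted p = 0.082). Each of these genes had its siVRK1 libraries on one side of its siCtrl libraries.

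Metabolic groups showed counts near those of all genes. Glycolysis and hypoxia-inducible genes counted 7 of 35 higher and 9 lower (10 and 7 with median-of-ratios scaling). ADM, the hypoxia-inducible peptide adrenomedullin, had 32.4, 34.6 and 31.7 TPM with siVRK1, against 17.6, 14.97 and 17.03 TPM with siCtrl (log2 fold change 0.95 ± 0.07, adjusted p = 7.35e-07). SLC2A3, a glucose transporter, had 46.97, 46.1 and 44.2 TPM with siVRK1, against 91.6, 91.3 and 91.7 TPM with siCtrl, and 41.7, 39.4 and 46.4 TPM with DMSO (log2 fold change -0.98 ± 0.08, adjusted p = 1.36e-06). The 2 genes moved in opposite directions without overlap. Fatty acid genes counted 4 of 28 higher and 10 lower (7 and 8 with median-of-ratios scaling). SCD, which desaturates fatty acids, had 113, 108 and 109 TPM with siVRK1, against 199, 194 and 194 TPM with siCtrl (log2 fold change -0.82 ± 0.05, adjusted p = 3.03e-07). Nuclear-encoded respiratory chain genes counted 7 of 59 higher and 14 lower (15 and 7 with median-of-ratios scaling). The complex I subunit NDUFS1 fell by 0.77 on the log2 scale.

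The mitochondrially encoded mRNAs took 8.04% of TPM with siVRK1, against 7.19% with siCtrl. Their sum ran from 65768 to 96040 TPM with siVRK1 and from 66495 to 80335 TPM with siCtrl, so the groups overlapped, and 2 of 13 were called higher (0 higher and 1 lower under quantile normalization). ATF4 targets and tRNA synthetases counted 9 of 40 higher and 14 lower (12 and 11 with median-of-ratios scaling). NUPR1, a stress-induced chromatin protein, had 62.6, 70.2 and 71.4 TPM with siVRK1, against 146, 145 and 128 TPM with siCtrl, and 66.4, 72.3 and 66.5 TPM with DMSO (log2 fold change -1.03 ± 0.09, adjusted p = 4.49e-06). Lysosome and autophagy genes counted 4 of 41 higher and 7 lower (8 and 6 with median-of-ratios scaling). SQSTM1, the autophagy receptor p62, had 59.97, 66.2 and 46.8 TPM with siVRK1, against 127, 127 and 110.5 TPM with siCtrl, and 47.5, 51.7 and 54.1 TPM with DMSO (log2 fold change -1.07 ± 0.11, adjusted p = 1.14e-05). In NUPR1 and SQSTM1 the siCtrl libraries stood apart on the high side, and DMSO overlapped or neared the siVRK1 range. Golgi and vesicle genes counted 7 of 48 higher and 12 lower (13 and 8 with median-of-ratios scaling).

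Antigen processing genes counted 3 of 25 higher and 11 lower (4 and 8 with median-of-ratios scaling). TAP1, which pumps peptides into the endoplasmic reticulum, had 46.99, 39.5 and 41.9 TPM with siVRK1, against 18.7, 17.03 and 20.5 TPM with siCtrl, and 36.7, 29.5 and 29.4 TPM with DMSO (log2 fold change 1.15 ± 0.10, adjusted p = 3.76e-06). BTN3A1, a butyrophilin involved in the response of gamma delta T cells to phosphoantigens, had 1.44, 1.59 and 1.39 TPM with siVRK1, against 5.505, 5.06 and 5.17 TPM with siCtrl (log2 fold change -1.34 ± 0.15, adjusted p = 1.91e-05). HLA-E, a ligand of natural killer cell receptors, rose by 0.54 on the log2 scale. Interferon-stimulated genes counted 2 of 33 higher, ISG15 and IRF9, and 12 lower (6 and 9 with median-of-ratios scaling). OAS3, a sensor of double-stranded RNA, had 2.08, 1.35 and 1.65 TPM with siVRK1, against 6.58, 5.05 and 5.94 TPM with siCtrl (log2 fold change -1.35 ± 0.12, adjusted p = 4.13e-06). IFI35 had 8.82, 9.21 and 6.84 TPM with siVRK1, against 15.95, 16.7 and 19.8 TPM with siCtrl (log2 fold change -0.996 ± 0.12). Both fell without overlap. Genes of RNA interference and RNA sensing counted 3 of 21 higher and 7 lower, with TLR3 and DICER1 lower by 0.85 and 0.43 on the log2 scale.

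Cytokine and NF-kB genes counted 5 of 21 higher and 6 lower (8 and 6 with median-of-ratios scaling). IL6ST, the shared gp130 receptor of the IL-6 family, had 24.97, 23.8 and 20.2 TPM with siVRK1, against 10.05, 8.27 and 11.1 TPM with siCtrl (log2 fold change 1.16 ± 0.15, adjusted p = 9.10e-05). NFKBIA, the inhibitor of NF-kB that NF-kB induces, had 24.1, 22.96 and 22.5 TPM with siVRK1, against 44.6, 39.1 and 39.8 TPM with siCtrl (log2 fold change -0.80 ± 0.07, adjusted p = 2.21e-06). The receptor rose and the inhibitor fell, both without overlap between the groups. Immediate early and MAPK feedback genes counted 5 of 32 higher and 14 lower. EGR1 had 21.3, 20.5 and 19.04 TPM with siVRK1, against 38.3, 37.5 and 37.5 TPM with siCtrl (log2 fold change -0.87 ± 0.12, adjusted p = 9.20e-05). JUNB had 35.6, 35.8 and 30.4 TPM with siVRK1, against 61.2, 56.1 and 58.3 TPM with siCtrl (log2 fold change -0.77 ± 0.06). DUSP5, a phosphatase of ERK, rose by 0.85 on the log2 scale. Apoptosis genes counted 3 of 33 higher (9.09%) and 9 lower (27.3%), against 13.8% and 27.0% of all genes. The decoy receptor TNFRSF10D was higher by 1.11 and CASP8 lower by 0.78 on the log2 scale.

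Metallothioneins and zinc transporters counted 5 of 16 lower and none higher by limma (0 higher at an unadjusted p under 0.05, and 5 lower and 1 higher with median-of-ratios scaling). MT1X, a metal-binding metallothionein, had 97.5, 102 and 93.8 TPM with siVRK1, against 124, 136 and 125 TPM with siCtrl, and 163, 164 and 151 TPM with DMSO (log2 fold change -0.39 ± 0.08, adjusted p = 0.00191). MT1F had 4.59, 1.95 and 1.37 TPM with siVRK1, against 9.302, 6.39 and 6.599 TPM with siCtrl, and 15.3, 12.7 and 13.3 TPM with DMSO (log2 fold change -1.30 ± 0.31, adjusted p = 0.00555). In both, the order was siVRK1, siCtrl and DMSO from low to high. S100 and annexin genes counted 4 of 14 higher and 6 lower (5 and 4 with median-of-ratios scaling), with ANXA3 higher by 0.78 and S100A4 lower by 0.81 on the log2 scale. Imprinted genes counted 1 of 15 higher (NDN) and 3 lower (4 and 2 with median-of-ratios scaling). Of 19 housekeeping reference genes, 3 were higher and 4 lower, with a median of -0.01 (0 and 5 under quantile normalization).

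The ES2 line was used to ask which A2780 changes differed between the lines. Of 14328 genes tested for the difference, ES2 minus A2780, 2962 were higher (20.7%) and 1897 lower (13.2%). Median-of-ratios scaling turned this surplus round, with 2254 higher and 2760 lower, quantile normalization gave 2511 higher and 2347 lower, and the replicate block left 1611 higher and 1194 lower. The contractile group counted 4 of 38 higher and 28 lower in this difference (3 and 31 with median-of-ratios scaling), and the matrix group 10 of 47 higher and 21 lower (8 and 21). Of these members, 6 contractile and 6 matrix genes had means under 1 TPM in both ES2 groups, among them ACTG2, MYL7, LMOD1 and TAGLN, where little or no effect in ES2 could be measured. Without such genes, an alternative added after the data had been seen, 22 of 32 contractile and 19 of 41 matrix genes were lower and 4 and 10 higher, against 13.7% lower and 22.8% higher among the 12183 genes left. The kinetochore group counted 35 of 51 higher and 2 lower (32 and 4 with median-of-ratios scaling), and the condensin group 20 of 26 higher and 0 lower by limma (0 lower at an unadjusted p under 0.05, and 17 and 0 with median-of-ratios scaling). TPM1 had a siVRK1 effect of -0.31 in ES2 and 1.15 in A2780 (difference -1.46 ± 0.06, adjusted p = 4.72e-13). LOXL2 had an effect of -0.22 in ES2 and 1.21 in A2780 (difference -1.43 ± 0.09, adjusted p = 3.19e-10). AMOTL2 had an effect of -0.04 in ES2 and 1.11 in A2780 (difference -1.16 ± 0.08, adjusted p = 2.00e-09). These 3 rises were thus larger in A2780 by the test of the difference.

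Other rises did not pass the test of the difference. TLN1 had an effect of 1.17 in ES2 and 1.31 in A2780 (difference -0.15 ± 0.12, adjusted p = 0.379). TEAD1 had an effect of 1.26 in ES2 and 1.09 in A2780 (difference 0.17 ± 0.11, adjusted p = 0.252). CDKN1A had an effect of 1.41 in ES2 and 1.03 in A2780 (difference 0.38 ± 0.18, adjusted p = 0.107). None of these 3 differences passed the threshold, which does not show that the effects are equal. Among the falls with the word GATAATA, TMEM9B and CENPQ did not pass the test of the difference either (0.07 ± 0.11 and -0.23 ± 0.15). GGCT fell further in ES2, with an effect of -2.39 in ES2 and -1.31 in A2780 (difference -1.08 ± 0.09, adjusted p = 2.71e-08). CCR1, PRKAR2B and PI15 were called higher in the difference (1.23 ± 0.09, 1.57 ± 0.11 and 1.45 ± 0.12), and ES2 cells held little of them, with means under 3 TPM in both groups.

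**Figure D5:**
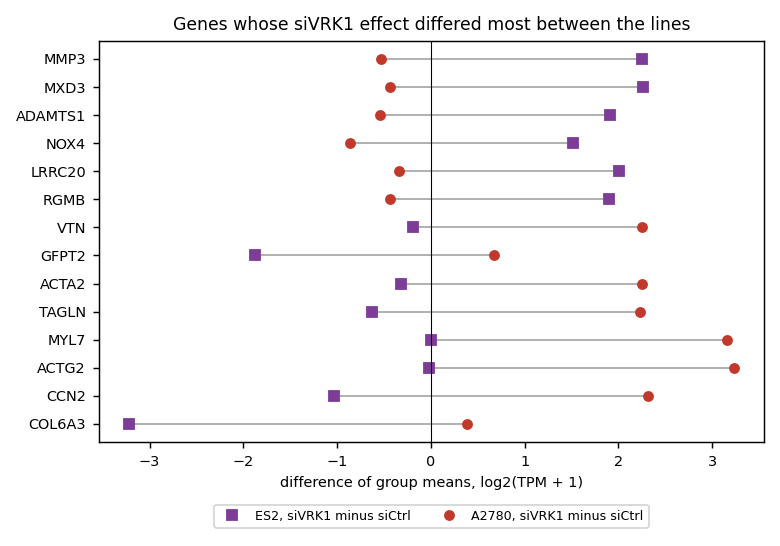
Difference of group means, siVRK1 minus siCtrl, on the log2(TPM + 1) scale in ES2 (squares) and A2780 (circles) for 14 genes. They come from the largest called differences between the lines among genes also called in A2780. COL6A3 and CCN2 have the largest negative differences between the lines, at -3.61 and -3.34, and MMP3 leads the other direction at 2.79. ACTG2 and MYL7 sit near 0 in ES2 cells, which hold next to none of them.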

How the data were processed

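Bulk RNA of A2780 and ES2 cells was sequenced. The authors deposited 1 table of TPM per transcript and library. FastQC, kallisto and the build hg19 are named per the submitters' processing notes, without versions. TPM keep no depth, so the depth is unknown and no counting interval can be computed; replicate spread is the only measure of precision. The table has 193845 lines for 191887 transcripts; the 1958 repeated lines carried identical values and were used once. Gene TPM was the sum over transcripts of a symbol. Omitted were 19 transcripts of several symbols and 9542 of none, 0.822% to 1.03% of TPM.

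Groups follow the titles. Genes with at least 1 TPM in at least 3 of the 12 A2780 libraries were tested on log2(TPM + 1) with limma-trend (limma 3.58.1, R 4.3.3), siVRK1 minus siCtrl, two-sided, adjusted over all genes by Benjamini and Hochberg, at a threshold of 0.05. Fold changes on this scale understate the change of low genes, and values after ± are standard errors unless SD is named. The difference between lines used the interaction over 24 libraries. The fit was tested on simulated data, where the share of false calls lay above the nominal 0.05 and fewer 1.5-fold than 2-fold changes were recovered.

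Named genes were the 40 largest rises and falls without overlap and with at least 5 TPM in the higher group, the 15 largest gains and losses in TPM, up to 4 rises, 4 falls and 4 uncalled members of each of 43 lists, and 8 differences between lines per direction; others are said to be chosen after their values were seen. The members and lists were chosen with earlier results of these data known. Lists are described by counts and medians, without a set test. Of 1372 list genes, 1369 were in the table and 1214 were tested. Promoters came from RefSeq (GRCh38.p14), matched by symbol for 10024 tested genes, and 3′ UTRs from GENCODE 29, whose IDs matched 160904 transcripts. Overlapping genes are uncertain, as the strand setting is not stated. Alternatives were pseudocounts of 0.1 and 5, quantile normalization, median-of-ratios scaling, a filter of 5 TPM or none, a robust prior, fits on the 6 siRNA libraries or on all 24, a replicate block and each library left out in turn. Tables and figures were made with Python 3.11.15, pandas 2.3.3, numpy 2.4.6 and matplotlib 3.10.9.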

Additional observations from a re-analysis of the deposited data

Results flagged for a closer look

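The interaction test over 24 libraries called a difference of the siVRK1 effect between the lines in 14 named genes. Differences are ES2 minus A2780 on the log2(TPM + 1) scale. The genes were chosen from the largest called differences among genes also called in A2780. A change in A2780 was thus set by the choice, and genes changed only in ES2 could not enter. ES2 cells held next to no ACTG2 or MYL7, so that their values restate the A2780 rise and no ES2 effect could be measured, and TAGLN was under 1 TPM there. Of the contractile genes, ACTG2 differed by -3.26, MYL7 by -3.16, TAGLN by -2.85 and ACTA2 by -2.57. ES2 cells held means of 0.0545, 0, 0.179 and 1.35 TPM of these with siVRK1, against 0.0729, 0, 0.851 and 1.88 TPM with siCtrl. CCN2, a secreted YAP target, differed by -3.34, with means of 322 TPM with siVRK1 and 657 TPM with siCtrl in ES2. COL6A3, a collagen VI chain, differed by -3.61, GFPT2, of hexosamine synthesis, by -2.56, and VTN by -2.44. In the other direction, MMP3, a matrix protease, differed by 2.79, MXD3, a MAX-binding repressor, by 2.69, ADAMTS1, a secreted protease, by 2.45, and NOX4, an NADPH oxidase, by 2.38. LRRC20 and RGMB, a BMP co-receptor, both differed by 2.34. These 6 genes fell in A2780, and their siVRK1 effects in ES2 were positive, from 1.52 for NOX4 to 2.26 for MXD3. The cause of these differences was not tested.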

How the results depend on the processing

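The count of 5318 changed genes stayed between 4385 and 5006 when 1 library was left out, and between 4841 and 5690 under the other alternatives. With genes that hold GATAATA left out, chosen after seeing the data, it was 4796. The number of genes past 2-fold moved with the pseudocount, to 216 higher and 272 lower at 0.1 and to 33 and 48 at 5, against 104 and 151, and it turned to a surplus of rises with median-of-ratios scaling (135 higher and 98 lower) and quantile normalization (128 and 100). No pairing by number was visible: deviations of libraries with the same number correlated at 0.018, -0.013 and -0.018. Weak shared effects are not excluded by this, and the labels do not say what a shared number marks. With the replicate block, 5049 genes changed in A2780, and the difference between the lines gave 2805 genes (1611 higher and 1194 lower), against 4859, with fewer libraries since 2 in ES2 carry no number. Without 1 library the difference gave 4371 to 4733 genes. Of the named genes, ACTB turned to -0.167 under quantile normalization and ran from -0.00798 (without siVRK1 library 3) to 0.0235 with 1 library left out, ACTG1 turned to 0.0581 with median-of-ratios scaling and ran from -0.0671 to 0.0196 (without siVRK1 library 3), and BANF1 turned to 0.0255 with median-of-ratios scaling, where the cause was not tested. Among 2172 values of 136 named genes under 16 alternatives, VRK2 and FTH1 lost their call and YAP1 and ACTG1 gained one under some. Of 1216 list counts, 1113 stayed within 1.5 times. The TPM keep no depth, so low genes cannot be given a counting error, and the limits of siRNA sequence, dose and time named above apply throughout.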
